A study of Mus musculus with 20 samples.

Results

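The genes described here are the cytosolic ribosomal proteins, the protein parts of the ribosome outside mitochondria, in livers of mice that do or do not become obese on a high-fat diet. They were found as the array probes whose gene name is Rpl, Rps or Rplp followed by a number and at most 1 of the letters a, x or y. The rule found 132 of the 41174 probes on the array, for 76 genes, of which 46 encode proteins of the large subunit and 30 of the small subunit. All 76 genes had at least 1 probe above the filter on dim signals, as did 127 of the 132 probes, so no gene entered because of the group in which it was high. The array's own annotation came in 2 versions, and 5 of the probes carried such a name in only 1 of them.

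The study set 10 livers labelled as responders, from mice prone to obesity on the diet, against 10 livers labelled as non-responders, from mice that resisted it. All 20 came from male mice of the inbred strain C57BL/6J (C57BL/6 in the sample labels), which ate a diet with 60% of its energy from fat from weaning on and were 6 weeks old when the livers were taken. The groups differ in no genotype or agent that the labels name, so both were on the diet and no lean-diet group enters. The rule by which an animal was called a responder was not among the sources. Single animals are not named in the labels either, so a p-value reflects the spread among samples, which may in part be technical. Whole liver was used, and in such bulk RNA fewer cells of a type and less RNA per cell cannot be told apart.

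A ribosome joins a small subunit, which reads the messenger RNA, to a large subunit, which joins amino acids into protein. Cells make the ribosomal proteins in matched amounts and assemble them with ribosomal RNA in the nucleolus. Their messenger RNAs are known as TOP mRNAs, because they begin with a C and a tract of pyrimidines through which the mTORC1 kinase pathway adjusts their translation to nutrients. In liver, where secreted proteins are made in bulk, these messages are abundant and several of the genes serve as reference genes.

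Because the members are known for a shared start and were found here to vary together, the stretch from 60 bases before to 20 bases after the annotated first transcribed base is shown for 6 of them, on the mouse build GRCm38.p6 from RefSeq. Capitals mark short stretches that resemble the pyrimidine tract, searched on the sense strand from 20 bases before to 50 bases after the start. These are CTTTC and its close variants, the first of them CTTTT and the other CTTCC. Capitals also mark CCGGAAG on either strand, a stretch that ETS-family transcription factors bind. Overlapping matches run together.
Rps6 (chr4:86857348-86857427, minus strand): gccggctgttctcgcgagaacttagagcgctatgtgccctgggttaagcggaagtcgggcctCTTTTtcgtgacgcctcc
Rps7 (chr12:28635934-28636013, minus strand): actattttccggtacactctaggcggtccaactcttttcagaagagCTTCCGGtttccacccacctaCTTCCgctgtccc
Rps23 (chr13:90923062-90923141, plus strand): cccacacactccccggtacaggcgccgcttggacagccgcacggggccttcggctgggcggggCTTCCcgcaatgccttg
Rps3a (chr3:86142649-86142728, minus strand): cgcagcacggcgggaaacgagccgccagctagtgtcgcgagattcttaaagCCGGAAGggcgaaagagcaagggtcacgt
Rpl4 (chr9:64173327-64173406, plus strand): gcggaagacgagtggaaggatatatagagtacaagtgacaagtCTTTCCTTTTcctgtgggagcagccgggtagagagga
Rpl31 (chr1:39367791-39367870, plus strand): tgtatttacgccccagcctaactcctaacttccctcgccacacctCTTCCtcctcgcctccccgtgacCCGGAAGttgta

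A promoter window was found for 56 of the 76 genes, under 66 annotated starts. In the stretch near the start, CTTTC stood in 47.0% of the 66 member windows, against 8.97% of all 32851 windows. CTTCC stood in 36.4% of the member windows and 14.1% of all windows, and CTTTT in 19.7% and 7.32%. Over the whole window and both strands, CCGGAAG stood in 36.4% of the member windows and 8.86% of all windows. AAGATGG, which resembles the site of the factor YY1, stood in 16.7% and 6.34%, and the GC box GGGCGG in 60.6% and 35.7%. The TATA box letters TATAAA, searched from 60 bases before the start up to the start on the sense strand, were in 0 of the 66 member windows and in 2.87% of all windows. A run of at least 5 pyrimidines that held the annotated first base was present in 30.3% of the member windows and 10.1% of all windows. A match is a description of letters, and annotated starts can lie away from the start used in liver.

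Signal is given throughout as log2 of an array's processed intensity minus that array's 75th percentile, so that 1 unit is a doubling. Levels are not compared between genes, since probes differ in brightness. Every difference is responder minus non-responder, from a limma fit over all 17167 genes and unnamed probes with the slide series as a second term, and is given with its standard error (SE). The arrays came in 2 slide series. The first held 4 responders and 6 non-responders, the second 6 responders and 4 non-responders. The share of spots well above background ran from 55.8% to 71.2% over the arrays, no spot was saturated, and the member probes held 4.16% to 4.93% of an array's summed signal. The array of responder 7 stands apart, with a larger share of low spots along 1 edge. The values of the genes with the lowest spots there are given with and without that array.

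No ribosomal protein gene passed the threshold between responder and non-responder livers. With limma and Benjamini-Hochberg adjustment over all features, 0 of the 76 genes had an adjusted p under 0.05, where the share of all features called was 0%. At an unadjusted p under 0.05, 1 member was lower, against 3.72% of all features, and 0 were higher, against 4.23% of all features. The smallest adjusted p of a member was 0.606. Most estimates lay slightly below 0, with 60 members lower and 16 higher in responders. The median difference was -0.045 for the members and -0.0029 for all features. In no member did the responders and non-responders separate without overlap, which happened for 0.00583% of all features.

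With the brightest probe of each gene and the main processing, the size of a difference that these livers leave room for was small. The 95% interval of the difference lay within 0.25 log2 units of 0 for 65 of the 76 genes and within 0.5 for 75 of them. The exception was Rps27a, whose interval reached down to -0.70 with the array of responder 7 and to -0.45 without it, and the highest upper bound, 0.36, belonged to Rpl21. A small median shift in 1 direction over many genes is not a count of independent genes, because the members varied together from liver to liver. These bounds do not hold under every processing, as with normexp background correction the median difference of the members was -0.53.

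**Figure D1:**
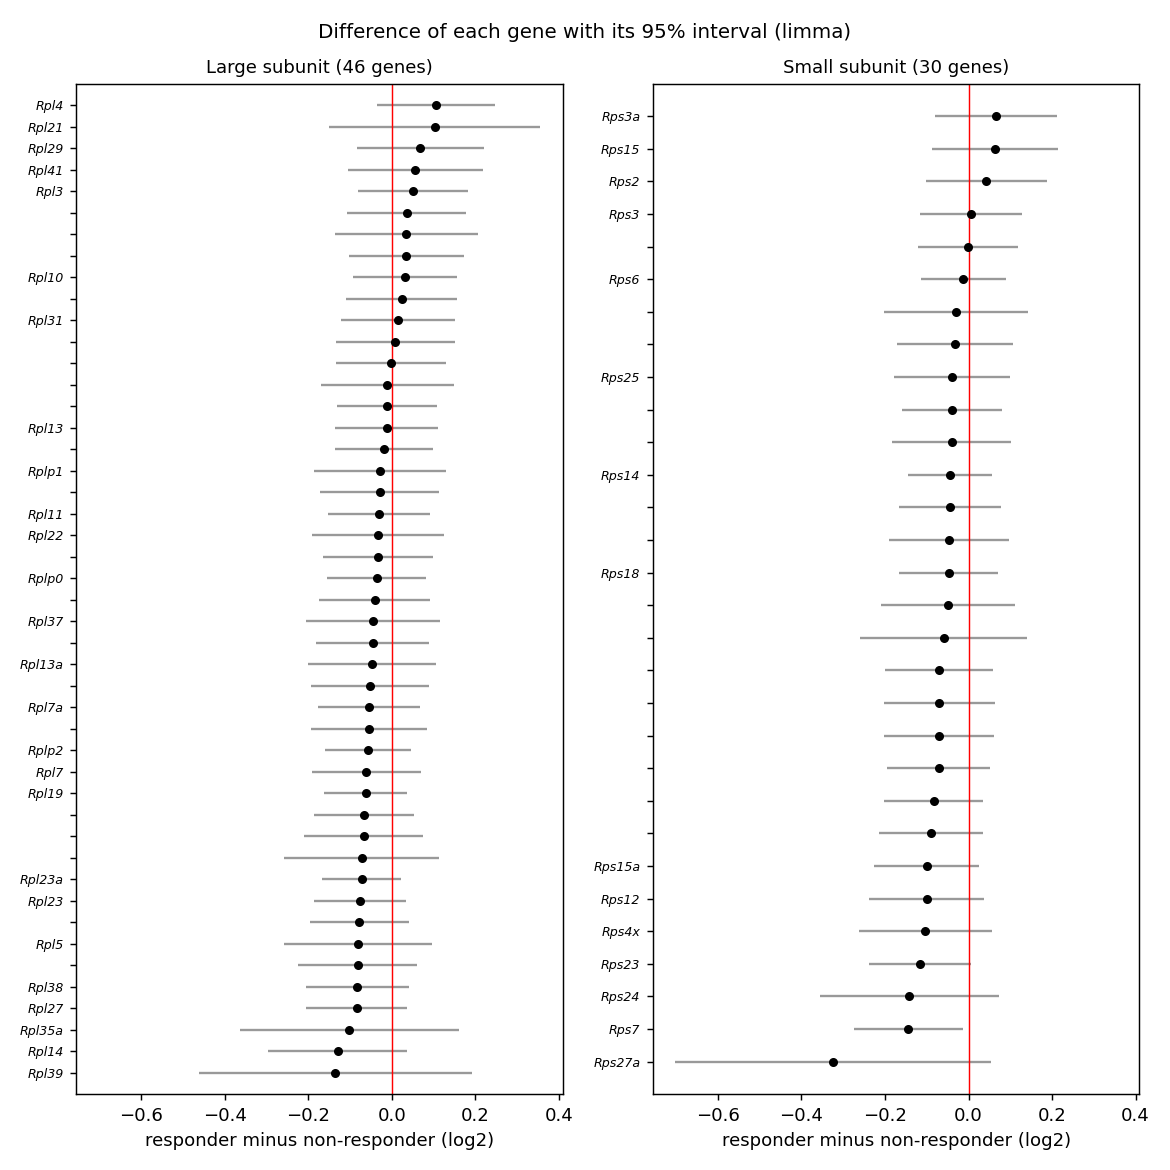
Difference of each of the 76 ribosomal protein genes between responder and non-responder livers (log2, x axis) with its 95% interval from limma, for the large subunit (left, 46 genes) and the small subunit (right, 30 genes), with the genes of the naming rule labelled. Rps7 is the gene whose interval lies wholly below 0, and 60 of the 76 points lie below 0.

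In the small subunit, 26 of 30 genes were lower and 4 higher in responders, with a median difference of -0.048. Rps7, whose protein also takes part in the processing of the ribosomal RNA of its subunit, had the smallest unadjusted p. Its signal was 6.25 at the lowest, 6.45 at the median and 6.82 at the highest in responders, against 6.36, 6.75 and 6.93 in non-responders. The groups overlapped over most of their range, although 9 of the 10 responders were under the mean of the non-responders hybridised in the same series. The difference was -0.14 (SE 0.063), with an unadjusted p of 0.0324 and a limma adjusted p of 0.606. It was -0.13 within the first slide series and -0.16 within the second.

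Rps23, which lies at the decoding site of the small subunit, had signals of 7.58, 7.82 and 8.11 (lowest, median and highest) in responders, against 7.77, 7.96 and 8.19 in non-responders. The responders reached lower than any non-responder, and the ranges otherwise overlapped. The difference was -0.12 (SE 0.058, limma adjusted p = 0.645). Rps15a and Rps12 differed by -0.10 (SE 0.060) and -0.10 (SE 0.066), and for Rps15a each of the 10 responders was under the mean of the non-responders hybridised in the same series. Neither passed the threshold, with limma adjusted p-values of 0.702 and 0.722. The second kept probe of Rps12, far dimmer, had the opposite sign, at 0.12 (SE 0.19).

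Rps6, the small subunit protein phosphorylated by S6 kinase downstream of mTORC1, barely differed. Its signal was 4.83, 4.93 and 5.11 in responders, against 4.83, 4.95 and 5.08 in non-responders. The ranges nearly coincided, and the estimate of -0.012 (SE 0.049) had a 95% interval from -0.11 to 0.090. Rps18, which is often used as a reference gene, differed by -0.048 (SE 0.057), and Rps14 by -0.044 (SE 0.048). Rps4x, the X-linked copy of a protein of the small subunit body, differed by -0.10 (SE 0.076), and by -0.057 (SE 0.056) without the array of responder 7.

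The 4 small subunit genes above 0 in responders were Rps3a at 0.065 (SE 0.070), Rps15 at 0.064 (SE 0.073), Rps2 at 0.042 (SE 0.069) and Rps3 at 0.0061 (SE 0.058). Rps3 and Rps2 line the channel through which the messenger RNA enters. None of the 4 differences was larger than its SE, and the second kept probe of Rps3a gave -0.027.

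In the large subunit, 34 of 46 genes were lower and 12 higher in responders, with a median difference of -0.039. The smallest unadjusted p among the lower genes was that of Rpl14. Its signal was -0.54, -0.35 and -0.16 in responders, against -0.57, -0.28 and 0.17 in non-responders, and the groups overlapped. The difference was -0.13 (SE 0.080, limma adjusted p = 0.706). It was 0.0020 within the first slide series and -0.26 within the second.

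Rpl23a, whose protein sits beside the exit of the peptide tunnel, differed by -0.072 (SE 0.046). Rpl23 and Rpl38 differed by -0.076 (SE 0.052) and -0.083 (SE 0.059). Rpl27 differed by -0.084 (SE 0.057) over 9 responders, as its spot was flagged as an outlier on the array of responder 7. Rpl19, a protein at the bridge to the small subunit, differed by -0.063 (SE 0.048), so that these 5 genes all lay within 0.1 of 0.

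The stalk of the large subunit, where the proteins of Rplp0, Rplp1 and Rplp2 recruit the elongation factors, showed the same small offsets. Rplp0, a common reference gene, had signals of 8.15, 8.31 and 8.53 in responders, against 8.19, 8.38 and 8.56 in non-responders. The difference was -0.036 (SE 0.057) for Rplp0, -0.028 (SE 0.075) for Rplp1 and -0.057 (SE 0.049) for Rplp2. The Rplp0 sign depended on the probe. The 2 other kept probes of Rplp0 gave 0.051 (SE 0.058) and 0.063 (SE 0.069), and all 3 estimates were smaller than their SE.

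Rpl5 and Rpl11, which bind the 5S ribosomal RNA and, when free, the p53 regulator MDM2, differed by -0.081 (SE 0.085) and -0.031 (SE 0.058). Rpl13a, known from translational silencing of inflammatory messages and used as a reference gene, differed by -0.046 (SE 0.073). Rpl22, which shares its role with a paralog, Rpl22l1, differed by -0.032 (SE 0.076).

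Among the large subunit genes above 0, Rpl4, whose protein reaches into the peptide tunnel, had the smallest p. Its signal was 3.12, 3.28 and 3.44 in responders, against 2.69, 3.34 and 3.51 in non-responders. The non-responders spread wider on the low side and had the higher median, whereas the fit with the slide series gave a difference of 0.11 (SE 0.068, limma adjusted p = 0.717). Rpl21 differed by 0.10 (SE 0.12), Rpl29 by 0.068 (SE 0.073), Rpl41 by 0.056 (SE 0.077) and Rpl3, a protein near the catalytic centre, by 0.052 (SE 0.063).

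The probe sequences behind 4 of these genes are shown because the results turn on single probes, in the sense orientation as the array files give them, with positions on the mm9 build of the array's annotation and no part in capitals. Rps7, Rpl4 and Rpl35a have 1 kept probe each. The 2 Rplp0 probes are those with the sign opposite to the brightest probe, and the second has no position in the annotation. The Rpl35a probe is mapped to a range longer than its 60 bases, since it spans a splice junction.
Rps7 (chr12:29315972-29316031, minus strand): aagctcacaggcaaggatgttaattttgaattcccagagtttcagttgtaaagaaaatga
Rpl4 (chr9:64022737-64022796, plus strand): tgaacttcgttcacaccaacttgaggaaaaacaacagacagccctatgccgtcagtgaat
Rpl35a (chr16:33057580-33058775, plus strand): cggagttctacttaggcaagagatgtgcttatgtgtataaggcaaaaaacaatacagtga
Rplp0 (chr5:116011423-116011482, plus strand): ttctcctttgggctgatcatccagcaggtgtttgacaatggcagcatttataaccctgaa
Rplp0 (no position): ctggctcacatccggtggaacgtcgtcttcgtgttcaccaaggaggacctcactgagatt

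Of the 76 genes, 40 had 2 or more kept probes, and in 16 of these the probes differed in sign. The 16 were Rpl10, Rpl13, Rpl22, Rpl29, Rpl31, Rpl37, Rpl7, Rpl7a, Rplp0, Rplp2, Rps12, Rps18, Rps24, Rps25, Rps3a and Rps4x. The widest such pair was that of Rps24, at -0.21 and 0.12. Both are dim probes, with mean signals of -1.9 and -1.5, against 6.7 for the probe that stands for the gene. The probe of opposite sign was also dim in Rps12 (-2.7), Rps4x (-3.1) and Rpl37 (-5.0), but not in Rpl7a (5.5) or Rplp0 (6.1). The share of genes with such probes was not counted over all genes. Ribosomal protein genes have many processed pseudogenes, so that a probe can also bind their transcripts. Of the 132 probes, 3 are placed on another chromosome than their gene, and 4 have no position.

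Taken as means over each subunit, the groups differed by less than the spread between livers. These means run over the 75 genes with a value on every array, which leaves out Rpl27. The large subunit mean over 45 genes was 5.89, 6.01 and 6.27 (lowest, median and highest) in responders, against 5.91, 6.11 and 6.24 in non-responders. Its average was 6.03 ± 0.11 over the responders and 6.08 ± 0.12 over the non-responders (SD, n = 10 each). The fitted difference was -0.027 (SE 0.043). The small subunit mean over 30 genes was 6.37, 6.51 and 6.86 in responders, against 6.48, 6.67 and 6.83 in non-responders. Its average was 6.55 ± 0.14 over the responders and 6.65 ± 0.13 over the non-responders (SD, n = 10 each). The fitted difference was -0.060 (SE 0.047). Both ranges overlapped almost wholly.

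The slide series split these differences. In the first series the large subunit mean differed by 0.0028 (SE 0.073) and the small subunit mean by -0.011 (SE 0.081). In the second series they differed by -0.058 (SE 0.046) and -0.11 (SE 0.049). In the first series 41 of 76 members were below 0, and in the second series 61 of 76. For the small subunit these counts were 17 and 26 of 30, and for the large subunit 24 and 35 of 46.

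**Figure D2:**
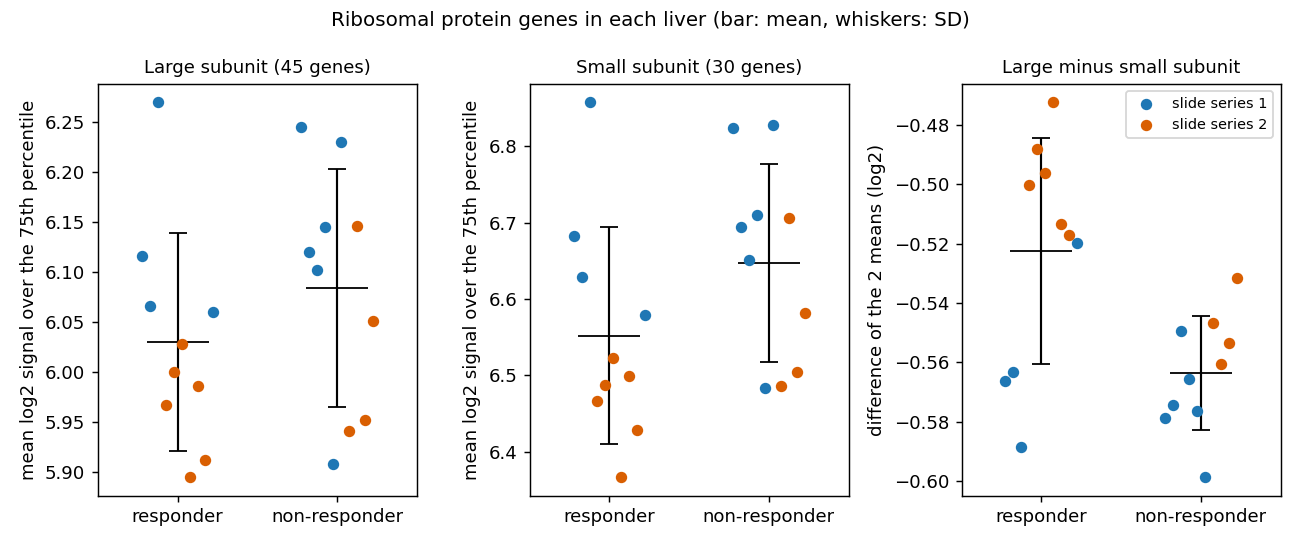
Mean log2 signal over each array's 75th percentile of the large subunit genes (left), the small subunit genes (middle) and the difference of the 2 means (right), 1 point per liver, with responders left of non-responders and slide series by colour. The bar and whiskers are the mean and SD of 10 livers, and the groups overlap in each plot. In the right plot they do not overlap within the second series.

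The difference between the 2 subunit means varied less from liver to liver than either mean. It compares probe signals of messenger RNAs and does not measure the amounts of the subunits. The large subunit mean minus the small subunit mean averaged -0.52 ± 0.038 over the responders and -0.56 ± 0.019 over the non-responders (SD, n = 10 each). With the group as the other term, it was 0.044 (SE 0.0094) higher in the second slide series than in the first. The difference between the groups was 0.032 (SE 0.0094) on the log2 scale, a change in ratio of 2.26%. Within the first slide series it was 0.014 (SE 0.014), and within the second 0.050 (SE 0.0098), where the 6 responders ranged from -0.52 to -0.47 and the 4 non-responders from -0.56 to -0.53 without overlap. It carries no p-value, since it is a score over genes chosen with results of these data known. Over the 62 genes outside the low edge of responder 7's array, a restriction added after these values were seen, it was 0.021 (SE 0.010), with 0.0059 (SE 0.014) for series 1 and 0.037 (SE 0.014) for series 2. In series 2 the groups then overlapped, with responders from -0.47 to -0.42 and non-responders from -0.52 to -0.46.

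The difference between the group effects of the 2 series was tested for each gene. At an adjusted p under 0.05, limma called 0 members and 0% of all features. At an unadjusted p under 0.05 it called 2 of the 76 members, against 9.68% of all features. The 2 were Rpl4, with differences of -0.065 for series 1 and 0.28 for series 2 (unadjusted p = 0.00747, limma adjusted p = 0.415), and Rpl31, with 0.15 for series 1 and -0.12 for series 2 (unadjusted p = 0.0353, limma adjusted p = 0.484).

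More ribosomal protein genes passed the threshold between the slide series than between the groups. In the second series minus the first, 32 members were lower and 3 higher at an adjusted p under 0.05, against 12.7% and 17.6% of all features. The counts depended on the processing. They were 18 lower and 4 higher after quantile normalization, 12 and 6 with plain background subtraction, and 15 and 5 of 71 in the authors' deposited values. With normexp there were 0 of either. With a term for the number in the sample title (the replicate block) they were 2 and 1. In that fit only numbers whose livers fell in different series inform the series difference, so less data bear on it. The 32 lower members were 18 of 46 in the large subunit and 14 of 30 in the small subunit. The median over members was -0.16, and over all features 0.018. What else differed between the series besides the slides and the day of scanning is not given in the labels, so its part in this was not tested.

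The brightest probe of Rpl21 fell the most, by 0.81 (SE 0.12, limma adjusted p = 6.76e-05), whereas its other, dimmer kept probe differed by 0.25 between the series. Of the 40 genes with 2 or more kept probes, 14 had series differences of both signs. Rpl37a fell by 0.43 (SE 0.064), Rps27 by 0.41 (SE 0.060), Rplp1 by 0.39 (SE 0.075) and Rps18 by 0.35 (SE 0.057), all past the threshold. The 3 that rose were Rpl23a by 0.23 (SE 0.046), Rps15a by 0.22 (SE 0.060) and Rpl10a by 0.22 (SE 0.068). Rps6 differed by -0.011 and Rpl19 by -0.020 between the series.

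The spread between livers was narrow. After the group and the slide series were taken out, the SD between livers had a median of 0.13 over the members, against 0.23 over all features. Over features well above background on all arrays it was 0.20. Other genes of translation, listed below, were alike in part. The median was 0.12 for initiation factors, 0.14 for elongation and termination factors and 0.13 for ribosomal protein genes outside the rule. It was 0.22 for ribosome biogenesis genes and 0.17 for the mTORC1 list. The narrowest were Rpl23a at 0.077, Rpl19 at 0.084, Rps14 at 0.086 and Rps6 at 0.087. The widest were Rps27a at 0.42, Rpl39 at 0.36, Rpl35a at 0.28 and Rpl21 at 0.27. For scale, 1 probe of Rplp0 is printed at 10 places on the array, and the SD between those spots within an array ran from 0.025 to 0.085.

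Much of the spread of the wide members rested on the array of responder 7. On it, Rps27a had 4.74, Rpl39 4.49, Rpl35a 5.19 and Rps24 5.79, each the lowest of all 20 values of its gene. Rps27a encodes a small subunit protein made as a fusion with ubiquitin, and Rpl39 a very small protein that lines the peptide tunnel. The spots of all 4 lie in columns 1 to 20 of the 85 columns of the array, where 14 members lie, and 0 members elsewhere were more than 0.5 below the other responders of the second series. Of all probes well above background on every array, 14.5% in those columns and 3.54% in the others were more than 0.5 lower on that array. On the other 19 arrays the 2 shares were close, at 1.66% to 7.29% in the edge columns. Around the Rps27a spot, 46.7% of the neighbouring probes were low in this way, around the Rps24 spot 37.1%, around the Rpl35a spot 16.7% and around the Rpl39 spot 12.1%. The genes fell further than the median of their neighbours. Rps27a was at -1.48 against -0.39, Rpl39 at -1.34 against -0.22, Rpl35a at -1.06 against -0.17 and Rps24 at -0.80 against -0.38. Rpl18, in column 1, lay 0.44 above the other responders of its series. What lowered the 4 spots was not tested. Rps4x, in column 2, lay 0.50 below the other responders of its series, while 0% of the probes around it were low.

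Without responder 7, the residual SD of Rpl39 was 0.16, that of Rpl35a 0.12 and that of Rps24 0.11, which are common values for the members. Rps27a kept the widest spread, at 0.26. The difference of Rps27a was -0.32 (SE 0.18) with that array and -0.20 (SE 0.12) without it, and in neither case did it pass the threshold (limma adjusted p = 0.679 with and 0.645 without). Responder 10 was also low for Rps27a, at 5.57. Rpl39 differed by -0.13 (SE 0.16) with responder 7 and -0.017 (SE 0.079) without it. Rpl35a differed by -0.10 (SE 0.12) with it and -0.0070 (SE 0.063) without it. Rps24 differed by -0.14 (SE 0.10) with it and -0.068 (SE 0.058) without it. Over the 62 members outside the edge columns, 48 were lower and 14 higher in responders, with a median difference of -0.040.

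**Figure D3:**
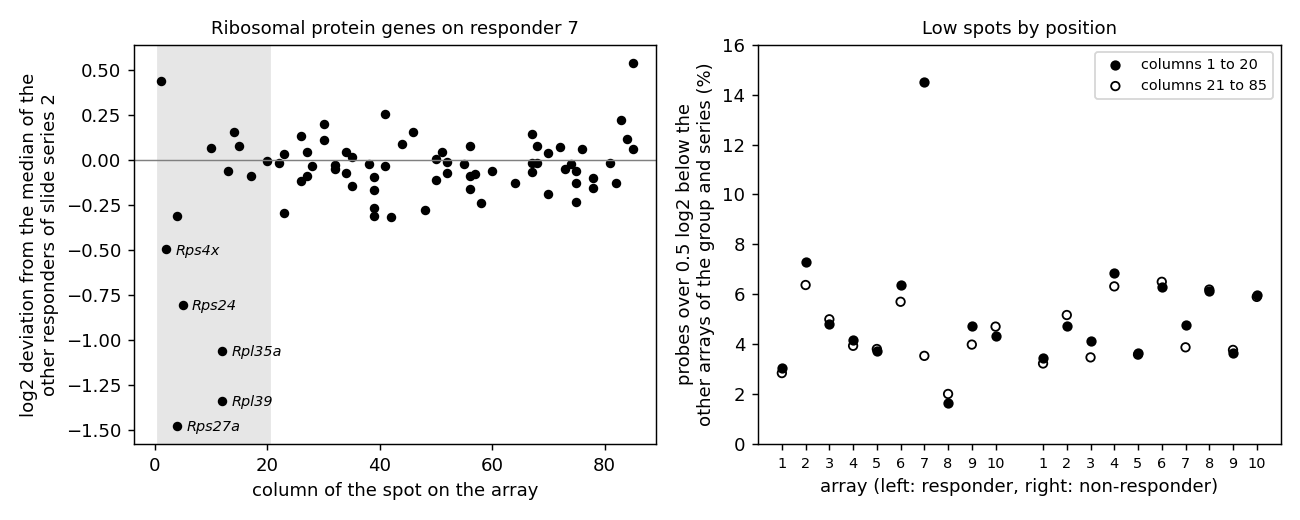
Left, deviation of each member on the array of responder 7 from the median of the other responders of the second slide series (log2) against the column of its spot, with columns 1 to 20 shaded. Right, share of all probes more than 0.5 log2 below the other arrays of the same group and series, in columns 1 to 20 (filled) and the others (open), with responders left. Responder 7 stands at 14.5% in the edge columns, against 3.54% in the others.

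Rpl21, the fourth of the wide members, lay outside that edge, in column 85, the last column on the other side of the array. On the array of responder 7 it was 0.54 above the other responders of its series. Its signal was 1.85, 2.25 and 2.87 in responders, against 1.55, 2.48 and 3.21 in non-responders, and its residual SD was 0.24 without responder 7. It also had the largest series difference and was the member least like the others.

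The ribosomal protein genes varied together from liver to liver. The residuals of each gene after the group and the slide series were correlated with the mean of the other members over the 20 livers, and the correlation had a median of 0.73 over the 76 members, against 0.049 over all features. It exceeded 0.5 for 63 of the 76 members, which is 82.9%, against 6.05% of all features. It was above 0 for 75 of 76. The highest values were those of Rps10 at 0.94, Rpl22 at 0.92, Rpl35 at 0.89 and Rpl34 at 0.89. The lowest were those of Rpl21 at -0.14, Rpl4 at 0.087 and Rpl31 at 0.27. These correlations share their arrays and the scaling to the 75th percentile, and they are given as a description with no p.

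Ranked by this correlation, 25 of the 50 highest features were members, as were 46 of the 200 highest. Of the named genes outside the rule, the 10 most like the members included Ess2 at 0.89, Chchd5 at 0.87, Cdkn2aip at 0.86, Timm8b at 0.83, Polr2f at 0.83, Naa38 at 0.82, Fau at 0.81, Pfdn5 at 0.81 and Avpi1 at 0.81. Fau encodes a ribosomal protein too, of the small subunit, made as a fusion with a ubiquitin-like protein, and it lies outside the rule by name alone.

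**Figure D4:**
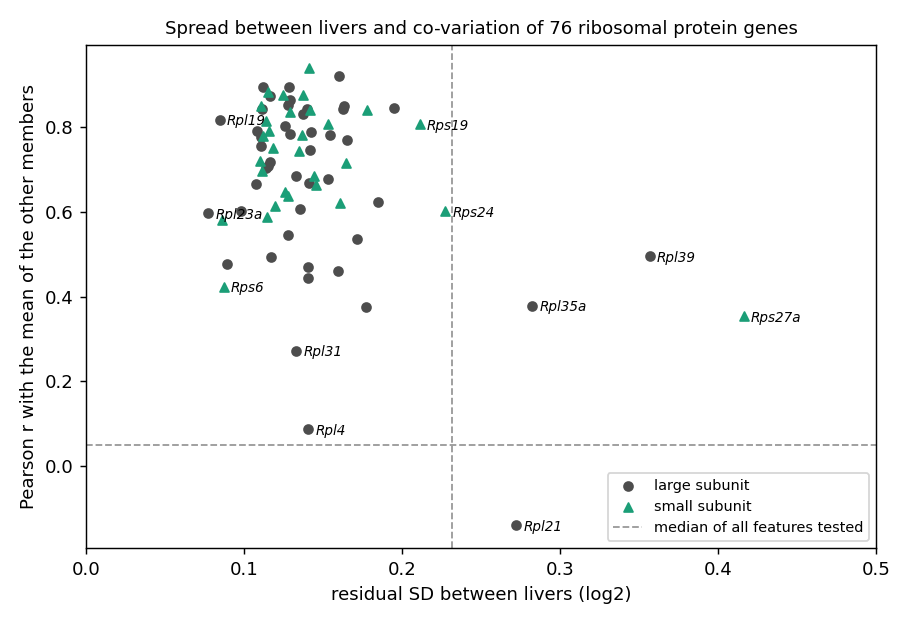
Residual SD between livers (log2, x axis) and correlation with the mean of the other members (y axis) for the 76 genes, with circles for the large and triangles for the small subunit. Dashed lines are the medians of all features tested, and most members lie left of 0.23 and above 0.5, with Rpl21, Rpl4, Rps27a, Rpl39 and Rpl35a apart.

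In single livers nearly the whole set deviated the same way. In responder 3, 74 of the 75 genes lay above the mean of their group and series, by 0.15 on average. In non-responder 5, 1 of the 75 lay above, and the mean deviation was -0.22. Non-responder 1 had 73 above at 0.12, non-responder 8 had 69 at 0.13 and non-responder 6 had 68 at 0.11. By mean deviation the lowest responders were responder 10 with 10 above at -0.084 and responder 7 with 27 above at -0.080. The mean of responder 7 includes the low spots at the edge of its array. Responder 2 had 12 above at -0.060, and responder 9 had 15 above at -0.045. The 2 subunits moved alike in each, with mean deviations of 0.14 (large) and 0.17 (small) in responder 3, and of -0.22 and -0.21 in non-responder 5. The shifts of responder 3 and non-responder 5 were larger than the group differences of -0.027 and -0.060.

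**Figure D5:**
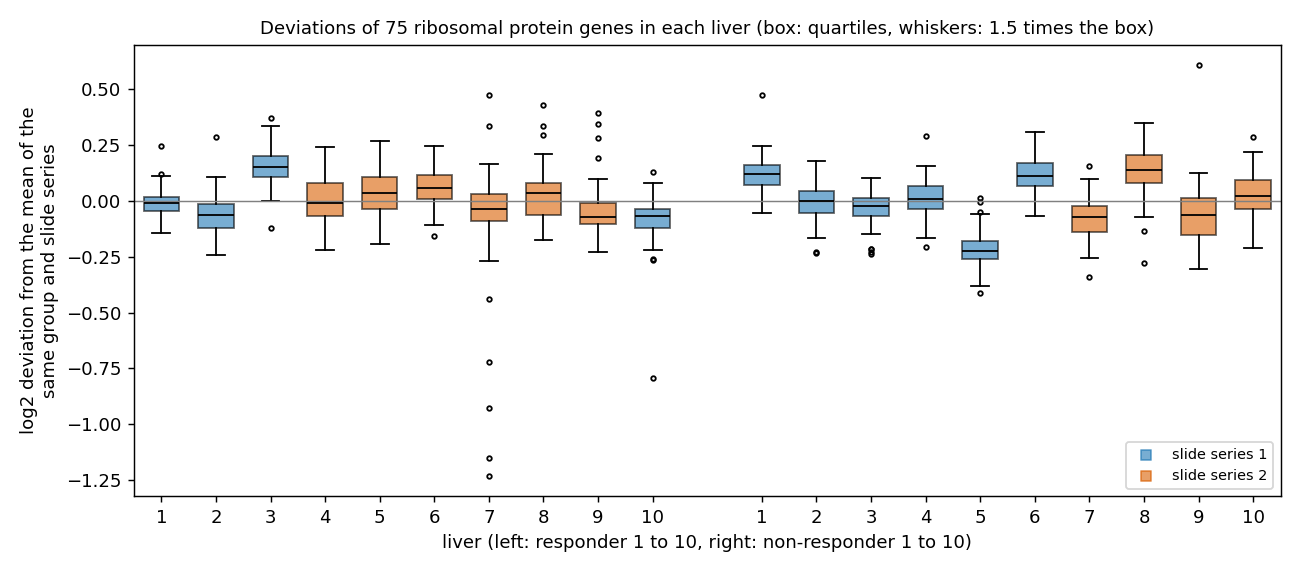
Deviations of 75 ribosomal protein genes from the mean of the same group and slide series (log2) in each liver, responders left and non-responders right, coloured by slide series. Boxes hold the middle of the genes, whiskers reach to 1.5 times the box, and points are genes beyond them. The box of responder 3 lies above 0 and that of non-responder 5 below it, and the lowest points of responder 7 are genes at the array's edge.

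Other genes of translation were read from lists beside the members. With limma, 0 genes of any of these lists passed the adjusted threshold. Of 9 ribosomal protein genes outside the naming rule, 8 were lower and 1 higher in responders, with a median of -0.030. Of 36 initiation factors 23 were lower and 13 higher (median -0.031), and of 16 elongation and termination factors 10 were lower and 6 higher (median -0.013). Of 56 ribosome biogenesis genes 35 were lower and 21 higher (median -0.034), and 2 of the lower ones, or 3.57% of the list, had an unadjusted p under 0.05, against 3.72% of all features. Of 32 genes of mTORC1 and the control of TOP mRNAs 17 were lower and 15 higher (median -0.012). The smallest p of these lists was that of Sesn2, a stress-induced inhibitor of mTORC1, which differed by -0.34 (SE 0.12, unadjusted p = 0.00866, limma adjusted p = 0.525).

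Between the slide series the other lists had the following values, with no test of a difference between lists. The 9 ribosomal protein genes outside the rule were all lower in the second series, 5 of them past the threshold with limma, with a median of -0.21. Initiation factors had a median of 0.046, with 8 lower and 6 higher of 36 past the threshold, and elongation and termination factors of 0.045, with 4 lower and 3 higher of 16. Ribosome biogenesis genes had a median of -0.047, with 8 lower and 4 higher of 56. The genes of mTORC1 and the control of TOP mRNAs had a median of 0.0086, with 3 lower and 5 higher of 32. Over all features, 12.7% were lower and 17.6% higher past the threshold.

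Markers of other cells were set beside these values. The hepatocyte markers averaged 8.08 at the median liver in responders and 8.08 in non-responders. All 7 adipocyte markers measured were lower in responders, by -1.26 (SE 0.44) on average. Of them 6 had an unadjusted p under 0.05 (limma), where 3.72% of all features were lower, and 0 an adjusted p under it. Their liver means ran from -3.54 to -0.73 in responders and -2.58 to 0.85 in non-responders. Of these markers, Retn was well above background on only 8 arrays and Plin1 on 11. A dim gene can pass the filter through the group in which it is higher, so the counts of lower adipocyte markers depend in part on the filter. All 5 stellate cell markers were lower too, by -0.32 (SE 0.11), with 4 at an unadjusted and 0 at an adjusted p under 0.05 (limma). Their means ran from 2.37 to 3.11 in responders and 2.69 to 3.47 in non-responders. The macrophage markers differed by -0.11 (SE 0.16), the 2 erythroid markers measured by 0.17 (SE 0.11) and the cholangiocyte markers by 0.14 (SE 0.17). The 7 pancreatic acinar markers ranged from -4.69 to 5.20 in responders and from -3.91 to 5.20 in non-responders. Responder 3, where nearly all members lay above their mean, was at 5.20, and so was non-responder 3, whose members deviated by -0.033 on average. Responder 7 was at 4.53, and its members deviated by -0.080 on average with its edge spots included. Non-responder 5, whose members deviated by -0.22 on average, was at 4.05. The T and B cell markers lay between -3.40 and -2.51 in responders and between -3.16 and -2.58 in non-responders. Markers with no kept probe included Serpina1a (hepatocyte), Lep (adipocyte) and Hbb-b1 (erythroid). The part of these cells in the ribosomal protein values was not tested.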

How the data were processed

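The authors deposited 1 scanner file per liver from single-colour Agilent arrays. Per the file headers, the processed intensity is linear and had its background subtracted and a spatial trend removed, with no scaling across arrays. The scanner software, Feature Extraction, carries the version 10.5.1.1 in the headers, whereas the submitters' processing notes name 9.1. The deposited table of processed intensity served as an alternative, and the sources used here do not give its normalization.

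Controls and spots flagged as outliers were removed, repeated spots were averaged, and log2 intensity reduced by each array's 75th percentile. A probe had to be well above background on 5 or more arrays of 1 group, and the brightest such probe stood for its gene. The comparison used limma 3.58.1 in R 4.3.3 (group and slide series as terms, Benjamini-Hochberg adjustment at 0.05), and the fit was tested on simulated data. SEs of subunit and marker means are over arrays, for genes with a value on every array. Annotation versions were reconciled by taking a probe named in either version as a member. Gene symbols and promoters came from RefSeq tables of GRCm38.p6, which served for names and promoters only.

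The members and lists were chosen with earlier results of these data known. Named members were up to 5 of each subunit and direction with the smallest p, 13 genes fixed by name, the 4 widest and 4 narrowest in spread, those whose probes differ in sign, the 10 other genes most like the member mean, and up to 3 genes of each translation list. Rpl37a, Rps27, Rpl10a, Rps10, Rpl34 and Rpl35 were named after their values were seen, as were the array columns taken as the edge. The labels do not say whether the numbers in the sample titles pair livers. The correlations of same-numbered deviations ran from -0.23 to 0.59. They cannot decide it, as differently numbered livers were not compared. Some genes are not reported here. Arrays have no read depth, and their number limits the precision.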

Additional observations from a re-analysis of the deposited data

Results flagged for a closer look

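Within groups of 10 livers, 5 of the 87 sets of values tested held a liver whose distance to its nearest neighbour was above the critical share of the group's range for 10 samples in Dixon's test at 95%. Chance gives about 1 in 20 such sets where they are independent and not chosen by their values. Here the sets share arrays, and the genes include those with the widest spread, so that rate is no benchmark. In responder 7, Rpl39 was at 4.49, against 5.76 to 6.25 in the other 9 responders, and Rpl35a at 5.19, against 6.11 to 6.50. In the same liver Rps24 was at 5.79, against 6.59 to 6.94, and Rpl7 at 6.81, against 7.07 to 7.28. The spots of Rpl39, Rpl35a and Rps24 lie in columns 1 to 20 of the array, where 14.5% of probes were low on that array, and that of Rpl7 lies in column 39. Around the Rpl7 spot 22.5% of the probes were low on that array, against 12.1% around Rpl39, 16.7% around Rpl35a and 37.1% around Rps24. In responder 3, Rpl13a was the highest of its group at 6.32, against 5.71 to 5.97 in the others, and 74 of 75 members lay above their mean in that liver.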

How the results depend on the processing

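In all 14 settings that kept every array, in each slide series alone, and with each of the 20 arrays left out in turn, 0 members passed the adjusted threshold between the groups. Normexp background correction, whose fitted background mean was far below 0 on 6 arrays (4 responders), moved the large subunit difference to -0.49, the small to -0.55 and the median spread to 0.81, and left 0 members called between the slide series. Members called between the slide series, 35 as reported, numbered 22 with quantile normalization, 20 with the authors' deposited values (71 members), 18 with plain background subtraction and 3 with the replicate block. Leaving out members in the edge columns, a setting added after seeing the data, left 29 of 62 called between the slide series and 0 between the groups. The replicate block on the title number changed no other call, and the labels do not say whether those numbers pair the livers. With it, only numbers whose livers fell in different slide series inform the series difference. With each probe on its own, 91 of 127 were lower in responders. Leaving out 1 array kept the large subunit difference between -0.052 and -0.0059 and the small between -0.090 and -0.035. The first of each pair is without responder 3 and the second without non-responder 8, which also left 52 members lower.

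The sign turned for 26 of the 41 named members in some setting, all far from the threshold. In the first slide series alone Rpl13a was 0.024, Rpl14 0.0020, Rpl22 0.042, Rpl35a 0.028, Rpl39 0.049, Rpl4 -0.065, Rplp0 0.035, Rplp1 0.074, Rps18 0.023, Rps25 0.033 and Rps4x 0.0045. In the second alone Rpl13 was 0.025, Rpl31 -0.12, Rpl41 -0.040, Rps2 -0.049, Rps3 -0.026 and Rps6 0.0067. With normexp Rpl10 was -0.45, Rpl21 -0.20, Rpl29 -0.47, Rpl3 -0.47, Rpl31 -0.090, Rpl4 -0.30, Rpl41 -0.41, Rps15 -0.42, Rps2 -0.42, Rps3 -0.46 and Rps3a -0.41. With the mean of all probes Rpl22 was 0.029, Rpl31 -0.00069, Rpl37 0.031, Rplp0 0.026, Rps12 0.012 and Rps25 0.025. With no slide series term Rpl21 was -0.059, Rpl3 -0.0093, Rps2 -0.012 and Rps3 -0.025. With plain subtraction Rpl13 was 0.023, Rpl31 -0.011 and Rps6 0.015. With the authors' values Rpl29 was -0.0095, Rpl7a 0.096 and Rps2 -0.0077. Leaving out 1 array gave ranges through 0 for Rpl11 (-0.057 to 0.00072), Rpl13 (-0.039 to 0.0091), Rpl13a (-0.096 to 0.012), Rpl22 (-0.066 to 0.010), Rpl31 (-0.0048 to 0.058), Rplp1 (-0.094 to 0.0026), Rps3 (-0.023 to 0.041) and Rps6 (-0.029 to 0.0055). The cause was not tested.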
